A study of Mus musculus with 38 samples.

Results

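Arc and 9 genes of clathrin-mediated endocytosis were followed across the 38 libraries: the dynamins Dnm1, Dnm2 and Dnm3, the endophilins Sh3gl1, Sh3gl2 and Sh3gl3, and the AP-2 subunits Ap2m1, Ap2a1 and Ap2b1. They were chosen by name, and all 10 symbols were found among the 23420 genes counted. The libraries came from adult male C57BL/6J mice with the Arc::dVenus transgene, in which the promoter of Arc drives a destabilized fluorescent protein. Each library held 10 granule neurons of the hippocampal dentate gyrus, either with fluorescence (dVenus+) or without it (dVenus-), and every mouse gave 1 library of each kind. Cells were taken a day after training from 12 mice that had been fear conditioned (FC) and from 4 exposed to the context but not shocked (NS), as well as from 3 mice kept in the home cage (HC).

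Arc is an immediate early gene whose protein acts at excitatory synapses, where it promotes the removal of AMPA receptors from the membrane by endocytosis. In clathrin-mediated endocytosis the adaptor complex AP-2 gathers cargo and clathrin at the membrane, endophilins bind and shape the curved neck of the bud, and dynamins are GTPases that cut the neck. Arc protein is known to bind endophilins, dynamin and AP-2. Dnm1 and Sh3gl2 are the forms of dynamin and endophilin best known from neurons, Dnm2 and Sh3gl1 are found in most tissues, and Dnm3 and Sh3gl3 are enriched in brain and testis.

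The total count on genes ran from 1352288 through a median of 7080448 to 11151828 in FC dVenus+ libraries and from 3554946 through 9955727 to 18394761 in FC dVenus- libraries. In NS mice the median was 6538319 in dVenus+ and 8647187 in dVenus- libraries, and in HC mice 7034630 and 8560998. The smallest library was the dVenus+ library of FC mouse 03. The sample identifiers of the FC mice fall into 3 series, of 2 mice (01 and 03), 4 mice (04 to 07) and 6 mice (09 to 14), and all NS and HC mice belong to another series. Training and series therefore cannot be told apart where FC mice are set against NS or HC mice, whereas the contrast of dVenus+ with dVenus- cells was made inside each mouse. Levels are given as normalized CPM, counts relative to the library total (CPM) scaled by TMM, a method that aligns libraries on the bulk of their genes. The scaling matters here: averaged over mice, unscaled CPM would move the dVenus+ against dVenus- differences by -0.38 (FC), -0.50 (NS) and -0.92 (HC) on the log2 scale, and the shift differed between mice in size and, among FC and NS mice, in sign.

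The labelled cell type was checked by its markers. The summed level of 11 granule cell markers was lower in the dVenus+ than in the dVenus- library in 12 of 12 FC, 4 of 4 NS and 3 of 3 HC mice. In FC mice this sum ran from 196 through a median of 597 to 1485 normalized CPM in dVenus+ and from 859 through 1284 to 2933 in dVenus- libraries. C1ql2 was the most abundant of these markers, and none was at 0 in any of the 3 groups of mice. The sum of 5 neuron markers was likewise lower in dVenus+ cells in 11 of 12 FC, 4 of 4 NS and 3 of 3 HC mice. The sum of 10 microglia markers went the other way and was higher in dVenus+ cells in 11 of 12 FC, 4 of 4 NS and 3 of 3 HC mice.

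In FC mice the microglia sum ran from 39.0 through a median of 242 to 2087 normalized CPM in dVenus+ and from 1.23 through 37.5 to 868 in dVenus- libraries, and 4 of the 8 genes tested were called higher by edgeR, beside 4.35% of all genes called in either direction. Ctss was the most abundant gene, with none of the 10 at 0 throughout. In the NS mice 18, 19, 20 and 21 the microglia sum was 79.4, 420, 1373 and 1061 in dVenus+ libraries, against 18.1, 27.1, 7.76 and 480 in dVenus- libraries. In the HC mice 15, 16 and 17 it was 1341, 1388 and 391 in dVenus+ libraries, against 33.5, 504 and 309 in dVenus- libraries. The cells were chosen by eye and aspirated singly, and the source of the microglia transcripts was not tested. The part of these marker differences in the results on the members was not tested.

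Arc itself comes first as a check of the reporter, because the fluorescence that chose the cells is driven by its promoter, so that its difference is a description of the selection. In FC mice Arc ran from 477 through a median of 829.5 to 1539 normalized CPM in dVenus+ libraries and from 0 through 0.566 to 172 in dVenus- libraries. The groups did not overlap, and all 12 mice were higher in dVenus+ cells. The dVenus- libraries of mice 06, 07 and 14 stood apart with 1276, 1095 and 2549 Arc counts, or 108, 48.1 and 172 normalized CPM, while none of the other 9 held more than 16 counts.

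In the NS mice 18, 19, 20 and 21 Arc stood at 862, 149, 147 and 465 normalized CPM in dVenus+ libraries, against 0, 4.33, 0.158 and 0 in dVenus- libraries. In the HC mice 15, 16 and 17 it stood at 278, 286 and 607 in dVenus+ libraries, against 0, 0.201 and 4.96 in dVenus- libraries. Every dVenus+ library lay above every dVenus- library in both groups of mice. By medians per kb of exon, dVenus+ cells held 271 normalized CPM after conditioning (FC), 100.5 without shock (NS) and 93.4 from the home cage (HC), but single NS and HC libraries reached into the FC range, and the difference passed the threshold neither between FC and NS mice (log2 1.13, SE 0.47, edgeR adjusted p = 0.312) nor between FC and HC mice (log2 1.23, SE 0.54, edgeR adjusted p = 0.338).

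The dVenus+ against dVenus- fold change was tested in each group of mice with edgeR, over 9709 genes for FC, 8187 for NS and 7588 for HC. Calls needed a p-value under 0.05 after adjustment by Benjamini and Hochberg and a log2 fold change beyond 1 in either direction. SE stands for the standard error of a log2 value. Of the 10 members, all tested in FC mice, 2 were called there, Arc and Dnm1, beside 4.35% of all genes. In NS mice 1 of 9 members tested was called, Arc, beside 0.0489% of all genes. The reporter of Arc chose the cells, so its calls say nothing of the partners. Apart from Arc only Dnm1 was called, in FC mice. In HC mice 0 of 8 members were called by edgeR, beside 0% of all genes, while 532 of all genes had an unadjusted p under 0.05, the older quasi-likelihood method of edgeR called 2 and DESeq2 called 625.

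For Arc the log2 fold change was 8.75 in FC mice (SE 0.95, edgeR adjusted p = 6.49e-07, higher in 12 of 12 mice). In the series of 6 mice it was called as well, but in the series of 4 mice, which includes mice 06 and 07, it was 5.72 and not called (edgeR adjusted p = 0.104). Without mice 06, 07 and 14 it was 10.89 (edgeR adjusted p = 9.07e-14), and with no mouse block 4.98. The series of 2 mice was not fitted on its own. In NS mice the log2 fold change was 8.75 (SE 1.44, edgeR adjusted p = 0.00184, higher in 4 of 4 mice), and in HC mice 8.33 (SE 1.61, edgeR adjusted p = 0.455, higher in 3 of 3 mice). The call in NS mice was lost with the older quasi-likelihood method of edgeR (adjusted p = 0.0782) and without a count filter (adjusted p = 0.0526). It was also lost by edgeR without mouse 18 (adjusted p = 0.385), mouse 20 (adjusted p = 0.791) or mouse 21 (adjusted p = 0.165). The log2 fold change of Arc in these fits was 10.63, 8.73, 7.97, 8.57 and 7.90, in that order. DESeq2 called Arc in HC mice too (log2 9.99, adjusted p = 7.51e-05).

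Dnm1, the dynamin of synaptic vesicle recycling, was the member that fell in FC mice. It ran from 51.3 through a median of 86.0 to 127 normalized CPM in dVenus+ libraries and from 94.9 through 200.7 to 570 in dVenus- libraries. All 12 mice were lower in dVenus+ cells, and the groups overlapped at their edges. The log2 fold change was -1.36 (SE 0.34, edgeR adjusted p = 0.0190), beside a median of -0.11 over all genes tested. It was also called by the older quasi-likelihood method (log2 -1.36, edgeR adjusted p = 0.0333) and by DESeq2 (log2 -1.31, adjusted p = 0.000156).

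This call rested on few mice more than its direction did. Without mouse 03, which holds the smallest library, the log2 fold change was -1.26 and not called (edgeR adjusted p = 0.0526). Without mice 06, 07 and 14 it was -1.45 and not called (edgeR adjusted p = 0.0658). It was -1.30 in the series of 6 mice (edgeR adjusted p = 0.348) and -1.27 in the series of 4 mice (edgeR adjusted p = 0.553). The granule cell and neuron marker sums were lower in the same dVenus+ libraries, in 12 and 11 of the 12 mice, and their part in the difference of Dnm1 was not tested.

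**Figure D1:**
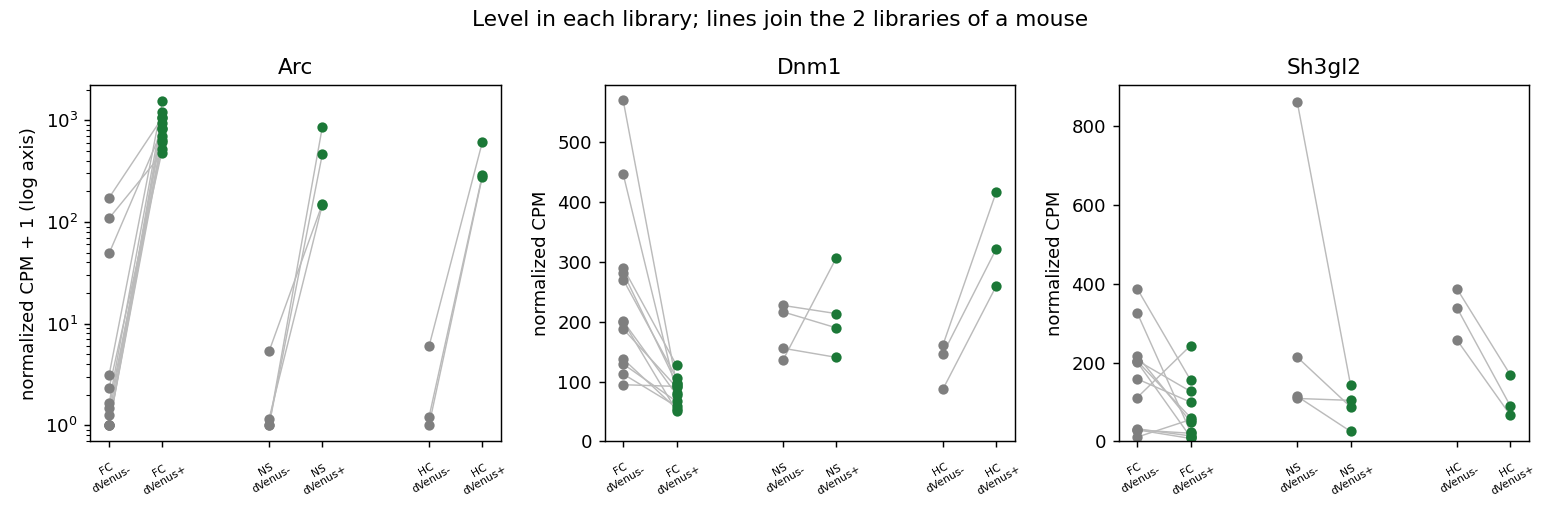
Normalized CPM of Arc (plus 1, log axis), Dnm1 and Sh3gl2 in each library of FC, NS and HC mice, with a line joining the dVenus- and the dVenus+ library of each mouse. Dnm1 was lower in dVenus+ cells in 12 of 12 FC mice and higher in 3 of 3 HC mice.

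In the HC mice 15, 16 and 17 Dnm1 stood at 260, 418 and 322 normalized CPM in dVenus+ libraries, against 87.9, 162 and 147 in dVenus- libraries. All 3 mice were higher in dVenus+ cells without overlap, a separation that 15.1% of all genes tested showed in either direction, and in unscaled CPM the groups overlapped. The log2 fold change of 1.20 was not called (SE 0.95, edgeR adjusted p = 0.762). In the NS mice 18, 19, 20 and 21 it stood at 190, 214, 307 and 141 in dVenus+ libraries, against 217, 227, 136 and 156 in dVenus- libraries. Only mouse 20 was higher in dVenus+ cells, the groups overlapped, and the fitted log2 fold change was 0.17 (SE 0.82, edgeR adjusted p = 0.969), which turned to -0.26 without mouse 20.

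The difference between the groups of mice was tested directly as an interaction, over 14075 genes. For Dnm1 the fold change in FC mice differed from that in HC mice by -2.75 on the log2 scale (SE 0.73, edgeR adjusted p = 0.399) and from that in NS mice by -1.57 (SE 0.65, edgeR adjusted p = 0.584), so neither passed. By edgeR 0 members and 0% of all genes passed for FC against NS, FC against HC and NS against HC mice, with 1152, 1304 and 968 genes at an unadjusted p under 0.05, and with 0, 0 and 1 gene passing by the older quasi-likelihood method.

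The level of Dnm1 in dVenus+ cells, by medians per kb, was 61.4 normalized CPM for HC, 38.4 for NS and 16.4 for FC, and in dVenus- cells 28.0, 35.5 and 38.2. In normalized CPM all FC dVenus+ libraries lay below all NS and HC dVenus+ libraries, a separation in either direction that 0.168% of all genes showed, but in unscaled CPM, where 0.136% of all genes showed it, those libraries overlapped. NS and HC libraries overlapped in both. The log2 difference in dVenus+ cells was -1.91 for FC against HC (SE 0.43, edgeR adjusted p = 0.0766) and -1.31 for FC against NS (SE 0.41, edgeR adjusted p = 0.242). The test for FC against HC depended on the method: the newer quasi-likelihood method of edgeR, which was used within mice, called Dnm1 there (log2 -1.91, adjusted p = 0.0266). In dVenus+ cells 0 members were called for FC against NS, FC against HC and NS against HC, beside 0.0319%, 0.12% and 0% of all genes, with 1737, 1776 and 1331 genes at an unadjusted p under 0.05 by edgeR. In dVenus- cells 0 members were called either, beside 0.0157%, 0.00785% and 0% of all genes, with 1943, 2164 and 1901 genes at an unadjusted p under 0.05 by edgeR. The newer quasi-likelihood method called 243, 228 and 0 genes in dVenus+ and 62, 66 and 1 in dVenus- cells.

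Sh3gl2, or endophilin A1, was lower in dVenus+ cells in most mice but was called in no group. In FC mice it ran from 7.70 through a median of 52.8 to 243 normalized CPM in dVenus+ and from 11.2 through 180 to 387 in dVenus- libraries. The groups overlapped widely, with 10 of 12 mice lower in dVenus+ cells and a log2 fold change of -1.21 (SE 0.51, edgeR adjusted p = 0.199), which was -0.74 without mice 06, 07 and 14 and -0.11 in the series of 4 mice. In the NS mice 18, 19, 20 and 21 it stood at 144, 104, 25.6 and 87.6 in dVenus+ libraries, against 861, 109, 114 and 214 in dVenus- libraries. All 4 were lower, with overlap between mice, and the log2 fold change was -1.55 (SE 0.87, edgeR adjusted p = 0.613).

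In the HC mice 15, 16 and 17 Sh3gl2 stood at 89.4, 168 and 66.3 normalized CPM in dVenus+ libraries, against 338, 386 and 257 in dVenus- libraries. All 3 were lower without overlap, and the log2 fold change was -1.84 (SE 0.99, edgeR adjusted p = 0.720). Not overlapping between dVenus+ and dVenus- libraries was 1 member in FC mice, Arc, beside 0.124% of all genes. In NS mice it was 1 as well, again Arc, beside 5.97%. In HC mice there were 4, Arc, Dnm1, Sh3gl2 and Ap2a1, beside 15.1%. For Arc this follows from the choice of cells by its reporter.

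By medians the other endophilins were sparser, except that Sh3gl1 was near Sh3gl2 in FC dVenus+ libraries. There the medians per kb were 10.1 for Sh3gl1 and 8.06 for Sh3gl2. Sh3gl1 had a median of 50.8 normalized CPM in FC dVenus+ and 85.1 in FC dVenus- libraries, with 3 of 12 mice higher and a log2 fold change of -1.08 (SE 0.68, edgeR adjusted p = 0.436), which was -0.38 in the series of 6 mice, -3.09 in the series of 4 mice and -0.47 with no mouse block. Its log2 fold change was -2.34 in NS mice (SE 1.48, lower in 3 of 4) and -2.90 in HC mice (SE 2.09, lower in 2 of 3), called in neither. It was -1.43 without NS mouse 21, -1.49 without HC mouse 15 and -4.71 without HC mouse 17. Sh3gl3 had medians of 3.37 and 6.74 in FC mice, with a log2 fold change of -0.47 (SE 0.93) that ran from -0.92 without mouse 04 to -0.0077 without mouse 12. It did not pass the count filter in NS and HC mice, where the fit without a filter gave -6.73 (SE 4.64) and -3.48 (SE 2.75). In NS mice these rest on 1 count over the 4 dVenus+ libraries, and a single dVenus- library, that of mouse 20, held 387 counts.

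Among the other dynamins, Dnm3 was near level over all FC mice, with a log2 fold change of 0.00078 (SE 0.49). Its sign changed with the filter, the method and the mice used. The value was -0.64 in the series of 6 mice and 1.25 in the series of 4 mice, called in neither. In NS mice its log2 fold change was 2.07 (SE 1.28, edgeR adjusted p = 0.641, higher in 3 of 4 mice) but 3.12 without mouse 18, 1.18 without mouse 20 and 1.04 without mouse 21. In HC mice it was 0.22, with -0.018 without mouse 16 and 0.41 without mouse 17. Dnm2, the dynamin of most tissues, had a median of 42.5 normalized CPM in FC dVenus+ and 14.0 in FC dVenus- libraries, with 8 of 12 mice higher and a log2 fold change of 1.33 (SE 1.01, edgeR adjusted p = 0.535), which was 0.87, 0.86 and 0.86 without mouse 04, 05 and 07. In NS mice it was 2.37 (SE 2.15) but 0.53 without mouse 18, 0.75 without mouse 20 and 5.00 without mouse 21, and in HC mice, below the count filter, the fit without a filter gave 0.87 (SE 2.31).

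The AP-2 subunits were called in no group. Ap2m1, the cargo-binding mu subunit, had the highest medians per kb of the 9 partners, from 55.3 normalized CPM in NS dVenus+ to 137 in HC dVenus- libraries. Its log2 fold change was 0.09 in FC (SE 0.37), -0.38 in NS (SE 0.77) and -0.96 in HC mice (SE 0.87), and the sign in FC mice changed when mouse 01, 12, 13 or 14 was left out. In NS mice it was -0.79 without mouse 18 and -0.11 without mouse 21, and in HC mice -0.23 without mouse 15 and -1.55 without mouse 17. Ap2a1, an alpha subunit, had log2 fold changes of 0.41 in FC mice, with 0.24, 0.22, 0.18 and 0.17 without mouse 01, 03, 09 and 12, and 0.94 in NS mice, with -0.070, 1.81 and 1.55 without mouse 18, 19 and 20. In the HC mice 15, 16 and 17 Ap2a1 stood at 22.8, 24.7 and 5.70 in dVenus+ libraries, against 60.7, 120 and 62.0 in dVenus- libraries. These did not overlap, and the log2 fold change of -2.50 was not called (SE 1.52, edgeR adjusted p = 0.736). Ap2b1, the beta subunit, had log2 fold changes of 0.83 (FC), -0.016 (NS) and 0.21 (HC), of which those in NS and HC mice changed sign with the mouse left out.

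**Figure D2:**
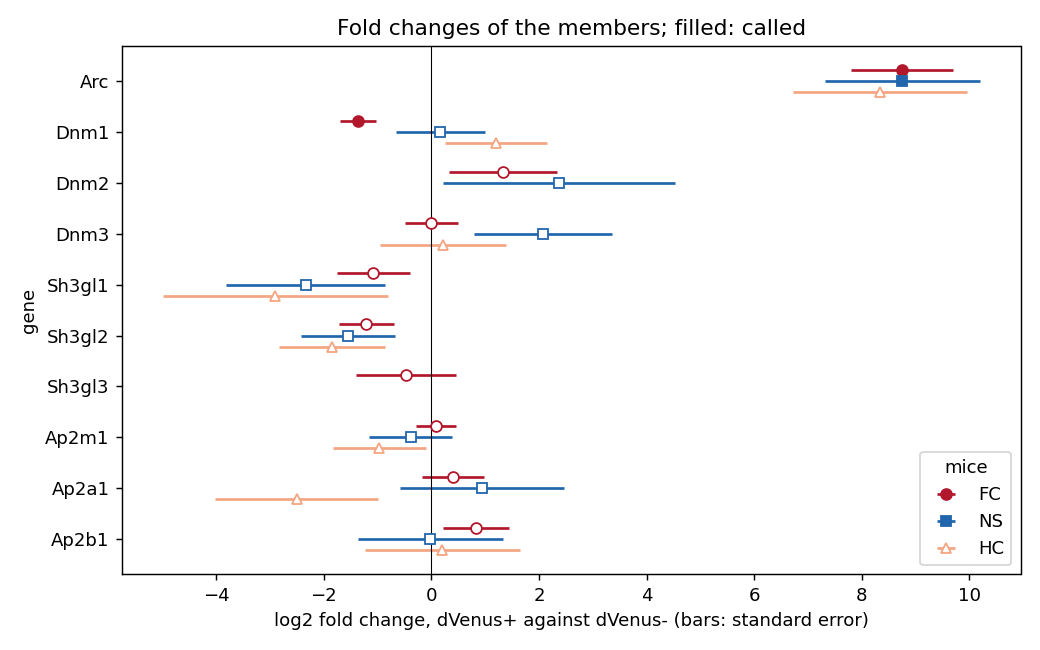
Log2 fold change of each member in dVenus+ against dVenus- cells with its SE, for FC, NS and HC mice, filled where called. Arc was called in FC and NS mice and Dnm1 in FC mice, and members below the count filter have no point.

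**Figure D3:**
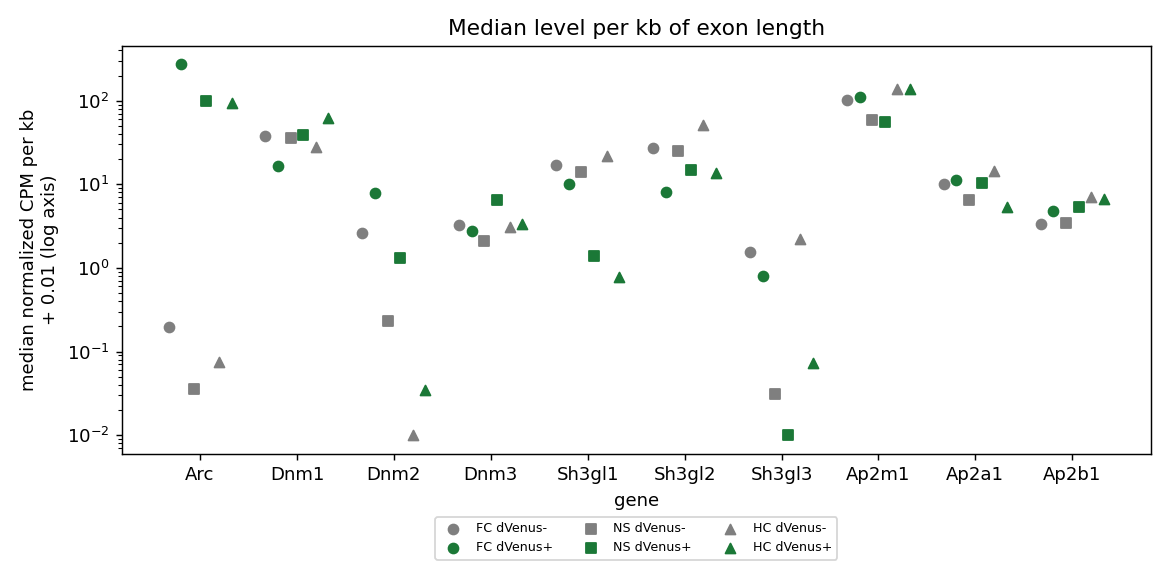
Median normalized CPM per kb of exon length (plus 0.01, log axis) of the 10 members in each of the 6 groups of libraries. Ap2m1 was the highest of the 9 partners in every group, and Arc differed most between dVenus+ and dVenus- cells.

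Promoters were read for the 9 partners from a table made from RefSeq, build GRCm38.p6, and this table holds no entry for Arc. Both strands were searched for the cAMP response element TGACGTCA, its short form TGACG, which the longer motif contains, and the AP-1 motif TGANTCA, held by 1.79%, 20.81% and 7.808% of 32851 promoters. The full element was found in Sh3gl2 and Ap2b1, the short form also in Sh3gl1 and Ap2m1, and none of the motifs in Dnm1, Dnm2, Dnm3, Sh3gl3 and Ap2a1. A match is a description of letters and not a binding site. The promoters of the member that fell and of the 2 that hold the full element are shown, with the element in capitals, from chr2:32353280-32353579 on the minus strand, chr4:85205206-85205505 and chr11:83302447-83302746 on the plus strand. The window of Dnm1 lies within Ciz1 on the opposite strand.
Dnm1: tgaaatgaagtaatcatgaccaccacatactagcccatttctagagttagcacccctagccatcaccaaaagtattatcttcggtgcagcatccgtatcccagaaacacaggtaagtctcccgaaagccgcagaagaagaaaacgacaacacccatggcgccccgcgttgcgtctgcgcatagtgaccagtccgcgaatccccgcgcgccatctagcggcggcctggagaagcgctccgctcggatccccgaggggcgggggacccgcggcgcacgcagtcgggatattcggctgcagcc
Sh3gl2: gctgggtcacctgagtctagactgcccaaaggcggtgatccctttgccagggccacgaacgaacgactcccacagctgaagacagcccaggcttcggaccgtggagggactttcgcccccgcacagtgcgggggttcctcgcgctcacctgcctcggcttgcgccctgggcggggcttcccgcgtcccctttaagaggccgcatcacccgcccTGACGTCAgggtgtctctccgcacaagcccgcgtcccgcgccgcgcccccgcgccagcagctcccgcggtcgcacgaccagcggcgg
Ap2b1: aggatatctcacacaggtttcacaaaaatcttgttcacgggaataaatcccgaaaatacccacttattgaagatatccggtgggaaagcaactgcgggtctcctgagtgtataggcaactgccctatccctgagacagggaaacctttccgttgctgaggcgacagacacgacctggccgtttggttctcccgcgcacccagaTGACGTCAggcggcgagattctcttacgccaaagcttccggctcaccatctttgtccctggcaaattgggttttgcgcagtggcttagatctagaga

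Wider lists of endocytosis and Arc-related genes were set beside the members. In FC mice 4.35% of all genes were called, in either direction, and 17.8% had an unadjusted p under 0.05. Of 8 AP-2 and clathrin genes 0 were called by edgeR there and 2 had an unadjusted p under 0.05, not far from the share of all genes, both higher in dVenus+ cells: the clathrin chains Cltb (log2 1.37, SE 0.49, adjusted p = 0.112) and Cltc (log2 0.97, SE 0.36, adjusted p = 0.126). Ap2m1 and Cltc were the most abundant of that list. The median log2 fold change of the list was 0.58 (FC), -0.043 (NS) and -0.26 (HC), beside -0.11, 0.081 and 0.019 over all genes. Of 4 dynamins 1 was called, Dnm1, and Dnm1l, the dynamin of mitochondrial fission, had a log2 fold change of 0.74 (edgeR adjusted p = 0.283). Of 5 endophilins 1 fell, Sh3glb2, an endophilin B (log2 -2.01, SE 0.48, edgeR adjusted p = 0.0139, lower in 12 of 12 mice). Its log2 fold change was -0.96 in NS (SE 1.22) and -1.10 in HC mice (SE 1.57), called in neither.

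Of 25 endocytic accessory proteins tested in FC mice 1 was called, a share close to the 4.35% of all genes. It was Hspa8, which rose, the chaperone that strips clathrin from vesicles (log2 1.17, SE 0.26, edgeR adjusted p = 0.00829, higher in 11 of 12 mice). Not called at an unadjusted p under 0.05 were Snap91 (log2 1.10), Epn2 (log2 -1.85) and Pacsin1 (log2 -1.03), and Bin1, among the most abundant, had a log2 fold change of 0.54. The median of the list was -0.43. In NS and HC mice 0 of these genes were called by edgeR, with 0 and 2 at an unadjusted p under 0.05, beside 8.67% and 7.01% of all genes. Hspa8 had log2 fold changes of 0.32 in NS (SE 0.50) and -1.04 in HC mice (SE 0.70).

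Among 12 AMPA receptor and trafficking genes tested in FC mice 0 were called by edgeR, with 7 at an unadjusted p under 0.05, beside 17.8% of all genes. Nsf, the ATPase that takes apart SNARE complexes, passed the p threshold but not that of the fold change (log2 -0.93, SE 0.26, edgeR adjusted p = 0.0339, lower in 11 of 12 mice). The receptor subunits Gria1 (log2 -0.71), Gria2 (log2 -0.85) and the auxiliary subunits Cacng2 (log2 -1.44) and Cacng8 (log2 -1.63) had negative values, and Gria4 (log2 2.98) and the scaffold Grip1 (log2 1.99) positive ones. The median of the list was -0.71.

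Of 10 other reported binding partners of Arc protein 3 fell in FC mice, beside 4.35% of all genes called in either direction: the calcium and calmodulin dependent kinases Camk2a (log2 -1.15, SE 0.28, edgeR adjusted p = 0.0148, lower in 11 of 12 mice) and Camk2b (log2 -1.72, SE 0.34, edgeR adjusted p = 0.00318, lower in 12 of 12 mice), and the actin regulator Wasf1 (log2 -1.62, SE 0.38, edgeR adjusted p = 0.0112, lower in 11 of 12 mice). The median of that list was -0.53 for FC, -0.23 for NS and -1.02 for HC, and 0 of its genes were called by edgeR in NS and HC mice, with 1 in each at an unadjusted p under 0.05, beside the same shares of all genes. The values of these 3 genes were negative there too, with larger SEs than in FC mice. In NS mice they were -0.84 (Camk2a), -1.16 (Camk2b) and -2.06 (Wasf1). In HC mice they were -0.94, -1.31 and -2.17, in that order. Of 12 AP-1 and AP-3 adaptor genes tested in FC mice 0 were called by edgeR, with 0 at an unadjusted p under 0.05. Their most abundant genes, Ap1s1 and Ap3d1, had log2 fold changes of -0.29 and -0.05. Of the 5 genes called in the wider lists beside Dnm1, Camk2b kept its call in each alternative run for these genes, which did not include the stricter filter, the fit with no mouse block or the single series. The older quasi-likelihood method of edgeR called neither Camk2a (log2 -1.16, adjusted p = 0.0527) nor Sh3glb2 (log2 -2.18, adjusted p = 0.0530). Without mice 06, 07 and 14 edgeR no longer called Hspa8 (log2 1.15, adjusted p = 0.0658) or Sh3glb2 (log2 -1.82, adjusted p = 0.0713). Wasf1 was not called there either (log2 -1.45, edgeR adjusted p = 0.0713). Without mouse 03 Hspa8 had a log2 fold change of 0.99, under the threshold. As with Dnm1, the granule cell and neuron marker sums were lower in the same dVenus+ libraries, and their part was not tested.

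Over the 38 libraries, among 11263 genes, the genes with levels most like that of Arc included Bdnf (Spearman rho 0.826), Inhba (0.793), Atf3 (0.783) and Blvrb (0.776). The level of Dnm1 was most like that of Ptms (0.779), Camk2n1 (0.761), Cdk5r1 (0.747), Nrgn (0.727) and Rpl17 (0.703). These are descriptions over libraries that share mice, cell selection and series.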

How the data were processed

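The deposited values are counts: per the labels, the authors aligned reads of Smart-seq2 libraries to mm10 with TopHat2 2.0.13 and counted them per gene with HTSeq 0.6.0. The 5 entries that name no gene were left out. In 10 of the NS and HC samples the description disagrees with the sample identifier, and mouse, training and cell type were taken from titles and characteristics. Members and lists were chosen with earlier results of these data known. Differences were tested with edgeR 4.0.16 in R 4.3.3 after TMM normalization, each group of mice in its own fit with the mouse as block, for genes that reached 10 counts in 12 (FC), 4 (NS) or 3 (HC) of its libraries. Interactions (all libraries) and levels (each cell type) used genes that reached 10 counts in 3 libraries. All p-values were two-sided and adjusted after Benjamini-Hochberg over all genes tested.

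The quasi-likelihood method was chosen after results were seen. The default of this edgeR version, the older method, was fitted first within mice and called 137 (FC), 0 (NS) and 2 (HC) genes. The newer method called 422, 4 and 0. The newer one was then taken for within-mouse and interaction fits, because an earlier analysis of these files had used it, and it makes more calls in FC and NS mice. All 137 older calls in FC mice were among the 422. The older method was kept for levels, a choice made on simulated data, where the newer made too many false calls, before level results were seen. Within FC and HC mice, too, the newer method made more false calls on simulated data than the older one. For HC mice very few calls of any kind were made there, and the simulated counts held no differences between mice. The calls in FC mice that the older method lacks are less certain. Both methods are given as alternatives.

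Alternatives also covered other count filters, size factors of DESeq2 1.42.0, its Wald test, no mouse block, subsets of FC mice and leaving out each mouse. Those for the wider lists and for the levels of Dnm1 were added after the data were seen. Paired libraries of a mouse deviated from their group means with a median correlation of 0.0361 (FC), -0.0121 (NS) and 0.0204 (HC), and the block was kept since both come from 1 animal. Named genes of each wider list are those called in any group, those with an unadjusted p under 0.05 in FC mice and the 2 most abundant. Likeness used log2 CPM with a prior count of 2. The deposited table of all libraries was not used. Reads carry no molecular identifiers.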

Additional observations from a re-analysis of the deposited data

Results flagged for a closer look

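Dnm1 was lower in dVenus+ cells in every FC mouse and higher in every HC mouse, a difference of -2.75 on the log2 scale between the groups of mice. The test of this difference did not pass (adjusted p = 0.399, edgeR), and training and series of sample identifiers cannot be told apart in it. The directions also held in unscaled CPM, but the HC values lay closer together there. In the HC mice 15, 16 and 17 they were 159, 128 and 326 in dVenus+ libraries, against 138, 88.4 and 220 in dVenus- libraries. Among the marker sums that turned as well was that of astrocytes, higher in dVenus+ cells in 3 of 12 FC and 3 of 3 HC mice. The part of cell composition was not tested.

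In 6 of 20 groups of 4 NS libraries a single library stood far from the others. They were Ap2m1 at 636 normalized CPM in the dVenus- library of mouse 21, Sh3gl2 at 861 in that of mouse 18, Sh3gl3 at 30.7 in that of mouse 20 and Arc at 4.33 in that of mouse 19. In dVenus+ libraries they were Sh3gl1 at 109.6 in mouse 18 and Sh3gl3 at 0.298, a single count, in mouse 19. For Sh3gl3 in both cell types and Arc in dVenus- cells the other libraries were at or near 0, so that any library with counts stands apart and the chance rate does not hold. The groups of 12 and of 3 libraries were not tested in this way.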

How the results depend on the processing

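Within mice, the number of genes called depended on the method. DESeq2's Wald test called 1651 (FC), 671 (NS) and 625 (HC) genes, and the older quasi-likelihood method of edgeR, chosen as an alternative after the data were seen although it was fitted first, called 137, 0 and 2. FC calls numbered 154 without mice 06, 07 and 14, 15 with only the series of 6 mice and 12 with only the series of 4 mice. NS calls numbered 11 with DESeq2's size factors, 1 without a count filter, 0 with a stricter one, 13 with no replicate block and from 0 to 2 with a mouse left out. With no replicate block the interactions had 14 genes for FC against NS, 8 for FC against HC and 32 for NS against HC, and with the older method 1 for NS against HC. For levels, the newer method, also added later, called 243 and 228 genes in dVenus+ cells (FC against NS, FC against HC) and 62, 66 and 1 in dVenus- cells (the last for NS against HC). Requiring 10 counts in 10 libraries gave 0 and 3 in dVenus+ cells (FC against NS, FC against HC) and 4 and 1 in dVenus- cells (FC against NS, NS against HC), and size factors 4 and 2 in dVenus- cells (FC against NS, FC against HC).

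The sign, but not always the size, of Arc (FC, NS and HC), Dnm1 (FC and HC), Sh3gl1 and Sh3gl2 held under every alternative run. Sh3gl1 in HC mice was -1.75 with DESeq2's Wald test and -1.63 with the older method. In FC mice Dnm2 was 0.48 with no replicate block and 4.69 with only the series of 4 mice, and Ap2b1 was 0.32 with only the series of 6 mice. Those that turned had log2 fold changes near 0 or few mice. In FC mice Dnm3 was -0.051 without a count filter, -0.034 with a stricter one and -0.0063 with the older method. It was -0.68 without mice 06, 07 and 14. By series, Dnm3 was -0.64 with only the series of 6 mice and 1.25 with only the series of 4 mice. With only the series of 4 mice, Sh3gl3 was 0.23, Ap2m1 -1.36 and Ap2a1 -1.14. With only the series of 6 mice these genes were at -0.69, 0.58 and 0.77. Without mice 06, 07 and 14 they were at -0.29, 0.17 and 0.85. With a mouse left out Dnm3 ran from -0.25 to 0.26 and Ap2m1 from -0.053 to 0.31 in FC mice. In NS mice Dnm1 then ran from -0.26 to 0.35, Ap2a1 from -0.070 to 1.81 and Ap2b1 from -0.68 to 0.52, and in HC mice Dnm3 from -0.018 to 0.41 and Ap2b1 from -0.51 to 0.70. With no replicate block Ap2b1 was -0.0042 in HC mice. Fewer mice were fitted in the subsets, and the cause of the other changes was not tested.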

Other observations

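Other cell type markers were summed in the same way. In FC mice the sum of 7 astrocyte markers had medians of 194 (dVenus+) and 390 (dVenus-) normalized CPM and was higher in dVenus+ cells in 3 of 12 mice, and that of 6 oligodendrocyte markers had medians of 497 and 546 and was higher in 4 of 12 mice. In HC mice the astrocyte sum was higher in dVenus+ cells in 3 of 3 mice, with medians of 1312 and 381. Sums of markers of mossy cells or CA3, of oligodendrocyte precursors and of endothelium had medians of at most 11.3 normalized CPM in FC mice. Of the granule cell markers tested in FC mice, 4 of 11 fell, beside 4.35% of all genes called in either direction: Calb1 (log2 -3.01), C1ql2 (log2 -2.02), Stxbp6 (log2 -1.36) and Plk5 (log2 -3.23), while Prox1 (log2 -0.77), Trpc6 (log2 0.34) and Pdyn (log2 0.82) were not called, and the last 2 were the only ones with positive values.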
